A study of Xenopus tropicalis with 30 samples.

Results

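A set of 6 windows of 1000000 bases on chromosomes 4, 5, 7 (2 windows), 8 and 10 of the western clawed frog *Xenopus tropicalis* were described at both ends of their transcripts. They were picked because their sites were higher in males than in females in earlier results of these data, so every sex difference given for them is a description, carries no test and supports nothing further. The windows run from 12000001 to 13000000 on chromosome 4, from 144000001 to 145000000 on chromosome 5, from 45000001 to 46000000 and from 73000001 to 74000000 on chromosome 7 (called the first and the second chromosome 7 window here), from 57000001 to 58000000 on chromosome 8 and from 39000001 to 40000000 on chromosome 10. Positions count from 1 and refer to the sequence names of the deposited tables, which name no genome build. The windows held 642 of 98277 poly(A) sites and 648 of 69857 start sites. No gene is named, because the deposited tables hold none and do not say which assembly their positions refer to, while the available gene list is tied to 1 assembly. For the same reason the whole-body label could not be checked against tissue markers.

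Whole bodies of adults were used, 6 males and 6 females, and the labels give no strain, genotype, treatment or age beyond adult. Start sites were read by WTSS-seq from RNA depleted of ribosomal RNA, and poly(A) sites by WTTS-seq, and per the series design the same 12 animals entered both assays. A pool of RNA from 3 adult females gave 2 repeat WTSS-seq libraries and 1 library of CAGE, a method that captures the cap of the transcript. Library totals lay between 2304469 and 6624765 counts in WTTS-seq and between 1866839 and 6643184 in the individual WTSS-seq libraries. Of the WTSS-seq male columns, 3 could not be tied to a numbered male: 1 is headed Male3 and 2 are headed Male4. Female 3 of WTSS-seq stands apart, with 67.2% of its counts on 1 unplaced scaffold against 1.56% to 26.1% on the highest scaffold of any other individual library.

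A transcript begins at a start site, where RNA polymerase initiates, and ends at a poly(A) site, where the RNA is cut and given its tail; many genes use several of each. Adult frogs of the sexes differ most in their gonads, and testis is known in vertebrates for the many loci it transcribes. The sex-determining region of *X. tropicalis* has been mapped to chromosome 7. In whole bodies, a larger organ or more cells of a type cannot be told apart from more RNA per cell.

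Across the windows, 127 poly(A) sites passed the filter on low counts and were tested for a sex difference over the whole table (edgeR's quasi-likelihood test, adjusted threshold 0.05); 80 were higher in males, 16 were higher in females and 31 were not called. The background over the whole poly(A) table was 25.8% male-higher and 24.9% female-higher. At the start end 168 sites were tested, of which 143 were higher in males, 15 in females and 10 were not called, beside 33.6% and 36.9% over all start sites tested. The rest, 515 poly(A) sites and 480 start sites, did not pass the filter, which asks for a minimum count in enough animals, so it also removes sites that are high in few animals: 14 such starts of the first chromosome 7 window reached 100 CPM or more in at least 1 animal. The median log2 difference (male over female) of the tested sites was 3.93 at poly(A) sites and 4.75 at start sites, against -0.29 and -0.19 over all sites. Since the windows were selected on this contrast, nothing is read from these shares.

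The levels of the windows differed widely among themselves. Levels are counts per 1000000 (CPM) after TMM scaling, a trimmed-mean adjustment for composition. At the start end the chromosome 4 window had the most counts, at 668, 1105 and 2091 CPM (lowest, median and highest female) and 21730.4, 28920 and 45233 CPM (lowest, median and highest male). The chromosome 10 window followed, with 455, 556 and 824 CPM in females and 8644, 11360 and 12531 CPM in males. In both of these the sexes did not overlap, and the log2 difference was 4.67 (SE 0.31) on chromosome 4 and 4.25 (SE 0.19) on chromosome 10. The second chromosome 7 window ran from 66.7 to 129 CPM in females, with a median of 81.5, and from 1107 to 2283 CPM in males, with a median of 1910. The chromosome 8 window ran from 119 to 167 CPM in females (median 140) and from 1139 to 3360 CPM in males (median 1294). The chromosome 5 window was the lowest of the 6, at 25.6 to 77.6 CPM in females (median 38.2) and 159 to 393 CPM in males (median 221). Female 3 was the highest female in each of these 3, and its TMM factor was 0.53 against 1.28 to 1.63 in the other females. By library totals alone it held 63.6, 38.1 and 82.2 counts per 1000000 in the second chromosome 7, chromosome 5 and chromosome 8 windows. All females together spanned 63.6 to 128, 36.7 to 58.1 and 82.2 to 214 on that scale. All males lay above all females in these 3 as well. This was not particular to the 6 windows. By starts it also held in the window after the chromosome 8 one (523 to 678 CPM in females, 1013 to 1698 in males). It held too in the windows before the first chromosome 7 one (133 to 235 and 257 to 1225 CPM) and before the second (0 to 1.18 and 13.3 to 37.8 CPM). In the other neighbouring windows with sites it did not hold. How often it held over all windows was not counted. Among the 6 windows the first chromosome 7 window was the exception. Its females spanned 309 to 1552 CPM (median 423) and its males 1088 to 14042 CPM (median 5955), so 5 of 6 males lay above all females.

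**Figure D1:**
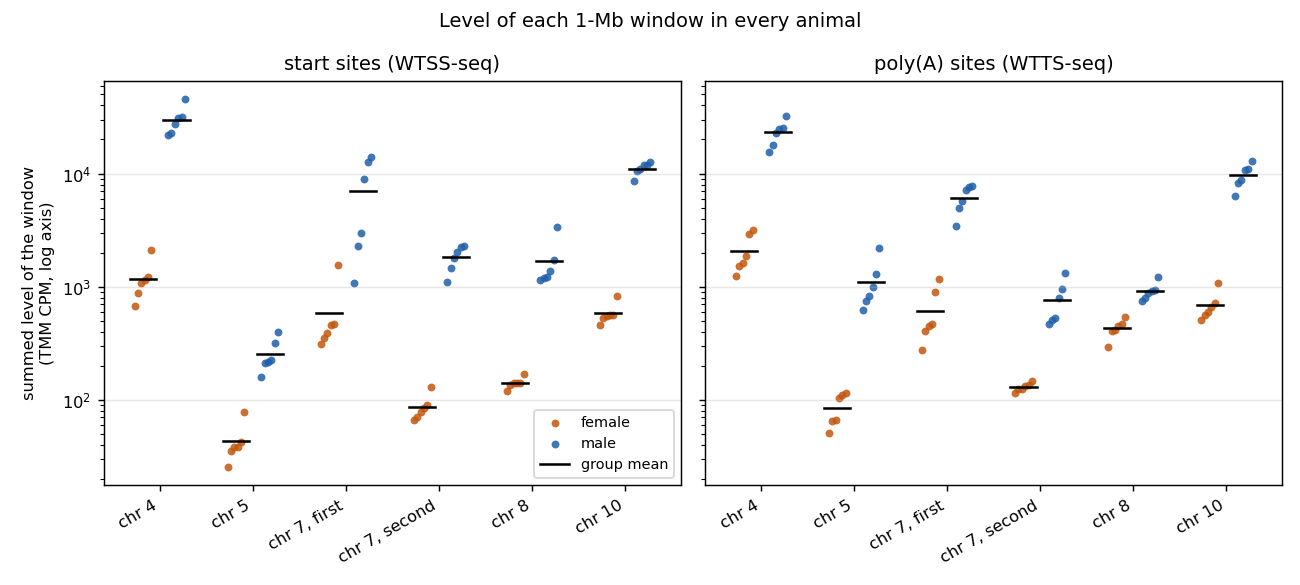
Summed level of each window (TMM CPM, log axis) in each of 6 females and 6 males, for start sites (left) and poly(A) sites (right); points are animals and black lines are group means. Males lie above females in every window except the first chromosome 7 window at the start end, where 1 male at 1088 CPM lies below the female at 1552 CPM.

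At the poly(A) end the 3 highest windows were the same. The chromosome 4 window stood at 2061 ± 800 CPM in females and 23136 ± 6025 in males (SD, n = 6 each here and below), the chromosome 10 window at 688 ± 208 and 9669 ± 2348, and the first chromosome 7 window at 611 ± 347 and 6133 ± 1737. The chromosome 5 window, the lowest by starts, held 84.8 ± 27.5 CPM in females and 1110 ± 573 in males, and the second chromosome 7 window 129 ± 10.8 and 763 ± 332. In all of these the 6 males lay above the 6 females. That also held in the window before the chromosome 8 one (624 to 791 CPM in females, 808 to 1711 in males). It held too in the windows before the chromosome 5 one (64.4 to 89.4 and 110 to 187 CPM) and before the second chromosome 7 one (1.14 to 4.98 and 23.4 to 108 CPM). It did not hold in the other neighbouring windows with sites, such as the one after the second chromosome 7 window (283 to 515 and 367 to 471 CPM). The share over all windows was not counted. The chromosome 8 window had the smallest difference, with 429 ± 81.3 CPM in females and 916 ± 166 in males, a log2 difference of 1.09 (SE 0.16) against 2.56 to 3.81 in the other 5. That difference rests on the scaling: scaled by the library totals alone, as counts per 1000000, females stood at 607 ± 82.5 and males at 560 ± 168, so its direction turned. Library totals alone move the median of all poly(A) sites by -1.25 and of all start sites by -0.66 on the log2 scale, and the split of called poly(A) sites in the windows from 80 and 16 to 63 male-higher and 25 female-higher. Over the whole poly(A) table the split moved from 4246 and 4095 to 2627 and 7462.

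Female-higher sites lay inside the windows too. In the chromosome 8 window the 5 female-higher poly(A) sites held 72.4% of the female level and the 13 male-higher ones 3.98% of it. A plus-strand poly(A) site at 57324326 stood at 15.3 to 33.6 CPM in females and at 0 to 1.63 CPM in males. Another site of the same strand, at 57150073, stood at 0, 0.990 and 4.27 CPM in females and at 40.0, 119 and 200 CPM in males. At the right side of the chromosome 10 window a plus-strand start site at 39789240 ranged from 45.1 to 73.4 CPM in females and from 0 to 2.22 CPM in males, and a poly(A) site at 39791489 held 318 female counts against 1 male count. In the second chromosome 7 window the poly(A) site of most counts was the female-higher one, at 73210234 on the minus strand (46.6 to 108 CPM in females, 3.27 to 32.1 in males), so the log2 difference of that window rose from 2.56 to 4.11 when it was left out. The windows on chromosomes 4 and 5 had weaker female-higher starts, at 12320894 (log2 difference -1.64) and 144204871 (-1.31), whose sexes overlapped. Each lost its call when any of several single libraries was left out; the log2 difference was -0.93 without female 2 for the first and -0.80 without female 3 for the second.

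In each window most of the male-higher sites of an assay lay on 1 strand. This main strand is the one that held more of them, so a majority on it follows from its definition. The plus strand carried most male-higher sites in the chromosome 4 and second chromosome 7 windows, and the minus strand in the other 4. Of the 143 male-higher starts, 132 (92.3%) lay on the main strand of their window, against a median of 72.7% over 200 other windows with 7 or more male-higher starts. Of the 80 male-higher poly(A) sites 63 (78.8%) did so, and by window 55.6% to 100%. The median window share was 65.2% over 48 other windows with 9 or more. Of these 48, 31.25%, 41.7% and 89.6% reached the shares of the first chromosome 7, chromosome 8 and second chromosome 7 windows. The shares of chromosomes 4, 5 and 10 were reached by 6.25%, 2.08% and 12.5%. In the chromosome 5, second chromosome 7 and chromosome 8 windows the main strand held every male-higher start, which was also so in 13.0% of those other windows. Poly(A) sites of the second chromosome 7 window were split, with 5 of 9 on the plus strand. With all starts counted, the same strand held 62 of 100 on chromosome 4, 73 of 86 on chromosome 5 and 127 of 171 on chromosome 10. It held 63 of 123 and 33 of 55 in the first and second chromosome 7 windows and 55 of 113 on chromosome 8. Strand played no part in the choice of windows, but the other windows were compared without a test.

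**Figure D2:**
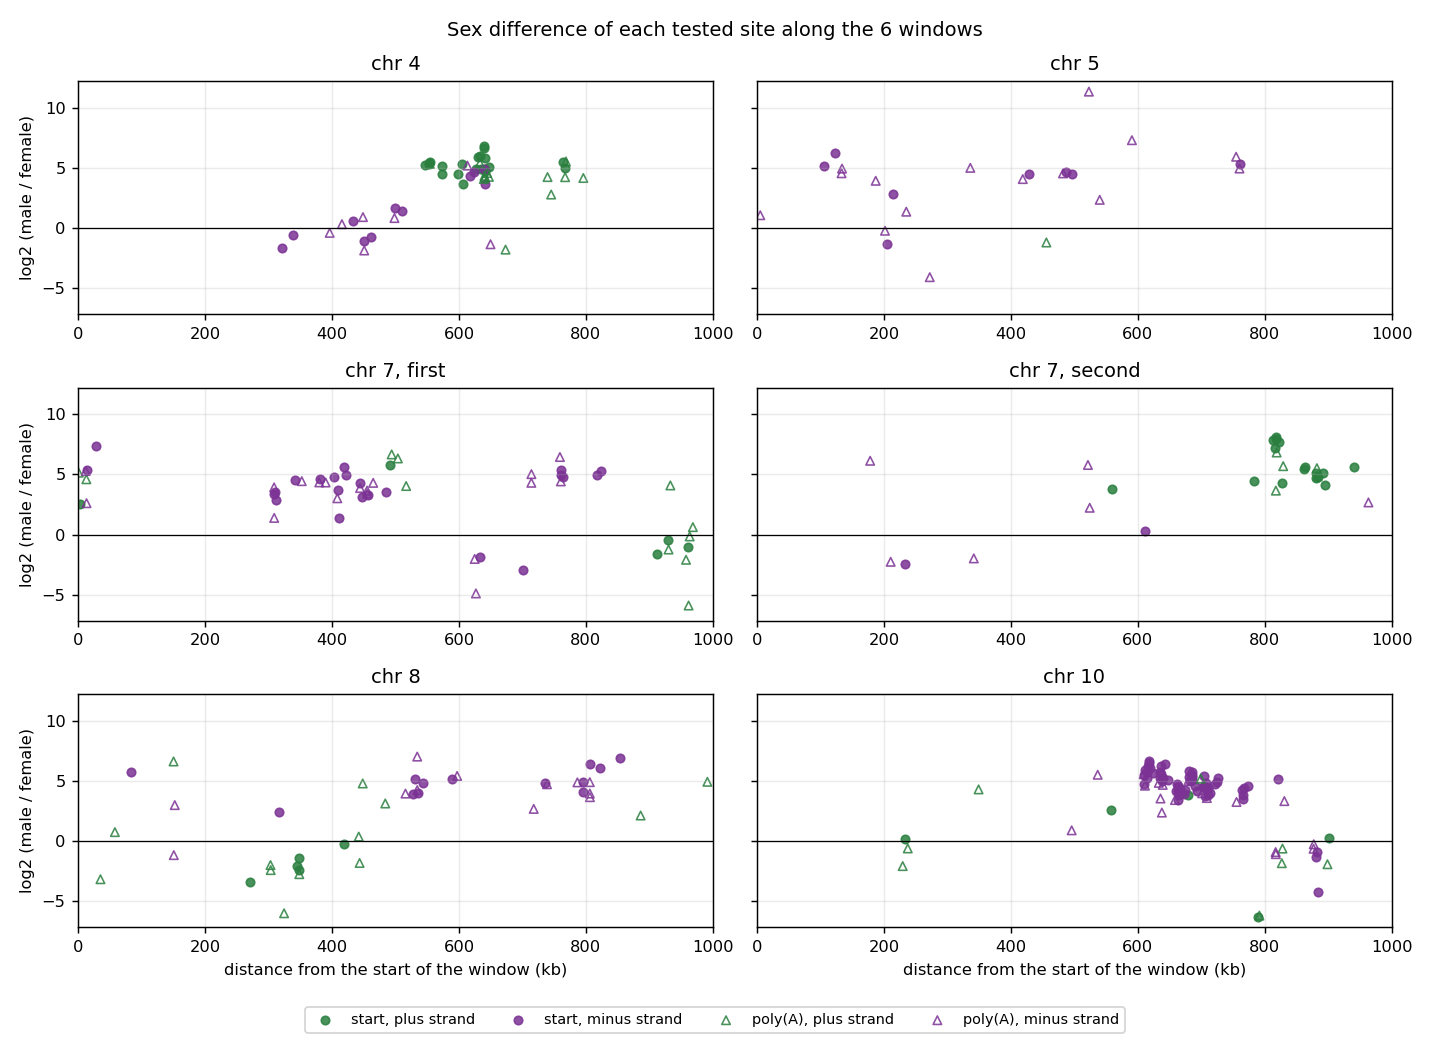
Log2 difference between males and females of every tested site against its distance from the start of the window (kb), for start sites (filled circles) and poly(A) sites (open triangles) on the plus (green) and minus (purple) strand. Male-higher sites of chromosome 10 crowd on the minus strand within 211793 bases of its right part, and sites below 0 occur in all 6 panels.

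The densest stretch lay in the chromosome 10 window. Its minus strand held 55 male-higher starts between 39609249 and 39821041, 211793 bases in all, with a median gap of 1203 bases, and they made up 96.2% of the male start level of the window. Between 39637895 and 39774270, 46 male-higher sites (40 starts and 6 poly(A) sites) followed each other on this strand with no tested site that was not male-higher between them. Over all chromosomes there were 3637 such unbroken series, of which 69 (1.90%) had 10 or more sites and this one was the second longest. The windows were chosen for male-higher sites, so nothing is read from the length or rank of a series in them. The highest start, at 39635028, stood at 29.3, 66.8 and 127 CPM in females and 2031, 2873 and 3298 CPM in males. The highest poly(A) site, at 39632909, stood at 95.5 to 186 CPM in females and 2512 to 7324 in males, where male 2 lay apart from the rest. The main start-to-end locus of the window, in which starts are joined to the poly(A) sites downstream of them on that strand across gaps of at most 20000 bases, ran from 39630700 to 39634442 and was male-higher at both ends, with log2 differences of 4.99 (poly(A)) and 5.89 (start). A start that follows a poly(A) site opens a new locus. The table holds no poly(A) site on chromosome 10 beyond 39929049, so the window covers the last sites of that chromosome.

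The chromosome 4 window was carried by a few very high sites. A plus-strand start at 12626599 (cluster 12626514 to 12626661) held 71.8% of the male start level of the window, with 430, 583 and 1519 CPM in females and 16830, 19156 and 31132 CPM in males. A plus-strand poly(A) site at 12647272 held 58.4% of the male poly(A) level, with 438 to 1566 CPM in females and 8009 to 20082 in males. The sexes did not overlap at either. On the minus strand a start at 12639295 ranged from 32.2 to 400 CPM in females and from 603 to 12131 in males. It lies 140 bases from a plus-strand start at 12639155 (0 to 2.85 CPM in females, 75.0 to 198 in males), and whether reads of such opposite pairs were fully kept apart by strand is not given in the sources used here. Away from this stretch, the main locus from 12547073 to 12554104 held 11 starts and 1 poly(A) site and stood at 806 ± 335 CPM in males against 20.5 ± 8.92 in females by starts, and at 6252 ± 1658 against 155 ± 50.3 by poly(A) counts. A series of 26 male-higher sites ran unbroken from 12547248 to 12647272 on the plus strand.

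The chromosome 5 window was the thinnest at the start end. Its 7 male-higher starts lay 74294 bases apart at the median and made up 32.4% of the male start level. Of its 86 starts, 78 did not pass the count filter and held 66.5% of that level. The highest tested start, at 144105004, stood at 0 to 1.69 CPM in females and 9.04 to 61.2 CPM in males. Its highest poly(A) sites reached more CPM than its highest tested starts, but each assay has its own scale. At 144418468 females spanned 1.84 to 32.5 CPM and males 161 to 442, and at 144590542 females spanned 0 to 2.78 and males 17.2 to 485 CPM with a median of 37.2. At 144522677 a single female count stood against 2780 male counts. Male 4 was the highest at the last 2 sites, far above the others.

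In the second chromosome 7 window the plus strand carried 96.0% of the male start level in 16 male-higher starts from 73559508 to 73940211. The highest, at 73812974, stood at 0.728, 3.97 and 9.29 CPM in females and 493, 1041 and 1340 CPM in males. A start close by, at 73817392, had 158 counts summed over males and 0 summed over females, which is at least 69.4-fold higher (against a floor of 3 counts over the group). The locus from 73812974 to 73817459 held 993 ± 316 CPM of starts and 36.0 ± 38.6 CPM of poly(A) counts in males. Females held 4.40 ± 3.27 and 2.80 ± 5.77 CPM. Since a start after a poly(A) site opens a new locus, poly(A) sites farther downstream on this strand fall in other loci. A locus from 73818317 to 73818756 held 92.0 ± 37.8 CPM of poly(A) counts in males. Whether its transcripts begin at 73812974 was not tested. The poly(A) site of highest mean CPM was 73882188, at 2.23 to 6.26 CPM in females and 134 to 303 CPM in males.

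In the chromosome 8 window a locus cut by the same rule also held more CPM of starts than of poly(A) counts in males. A minus-strand locus from 57806352 to 57821913 held 453 ± 218 CPM of starts in males and 6.85 ± 3.30 in females, beside 29.4 ± 14.1 and 2.74 ± 3.15 CPM of poly(A) counts. Its leading start at 57821913 ranged from 258 to 813 CPM in males and from 3.39 to 12.5 in females. Further along, the start at 57853518 ranged from 94.8 to 1614 CPM in males, the highest being male 1, and from 0 to 12.3 in females. Levels of the assays are each scaled to their own library, so a ratio between ends is not a ratio of molecules.

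At some borders male-higher sites of 1 assay lay on both sides. On chromosome 7 a plus-strand poly(A) site at 44999570, 431 bases before the first window, stood at a mean of 145 CPM in males and 2.24 in females, beside 40.8 and 1.22 CPM at 45000520 just inside. On chromosome 8 a start at 58000987, just past the window, had a mean of 7.34 CPM in males and 0 in females. In the other assay the nearest tested site outside was female-higher at both of these borders. It was a start at 44925944 (log2 difference -1.96) on chromosome 7 and a poly(A) site at 58046698 (-1.19) on chromosome 8. An unbroken series of 23 male-higher sites reached back from the second chromosome 7 window to 72551249. Only 2 of them lay outside the window, at 72551249 and 72554004, and the next was at 73559508. A series has no limit on the distance between its sites, so this is no continuous stretch. At the other borders the nearest tested sites outside were mixed. The neighbouring 1000000-base windows had log2 differences between -2.67 and 4.91 at the poly(A) end and between -1.33 and 5.41 at the start end. Both of the highest values belong to the thinly filled neighbour before the second chromosome 7 window, with 1 tested site in each assay.

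No locus of the windows that was tested in both assays had opposite calls at its ends. Such calls were also rare over all loci, at 82 of 5401 tested in both assays. With only 57 window loci so tested, nothing is read from their absence in the windows. Of 254 start-to-end loci in the windows 57 were tested in both assays, of which 44 were male-higher in both, 4 were female-higher in both, 0 had opposite calls and the rest were called at 1 end or at neither; the windows were chosen on these values. Over all 5401 loci tested in both, 1266 were male-higher in both, 1130 female-higher in both and 82 opposite. Over all loci tested at an end, 26.0% were male-higher and 26.3% female-higher by poly(A) counts, and 32.6% and 36.3% by start counts. Such a locus need not be 1 gene, and loci of near-identical sequence may share reads in a way the sources used here do not give.

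At the start end the first chromosome 7 window was the most uneven of the 6 among animals. The coefficient of variation of its start level was 80.6% among males and 81.1% among females, against medians of 20.9% and 22.5% over 1242 windows. A plus-strand start at 45490905 stood at 66.4, 1200 and 5465 CPM in males and at 0.678, 11.2 and 177 CPM in females. Male 1, male 6 and the second column headed Male4 were the 3 highest males there, and also at minus-strand starts at 45340870 (371, 638 and 291 CPM in these 3, at most 1.69 in the other males), 45402576 (773, 751 and 577, at most 24.1) and 45408717 (603, 810 and 507, at most 102). Among females, female 5 was the highest at all 4 of these sites. A minus-strand start at 45308966, in the main locus of the window, was even by comparison, at 238 to 596 CPM in males and 23.4 to 53.0 CPM in females. At the poly(A) end the male coefficient of variation of this window was 28.3%, below the 51.6% of the chromosome 5 window and the 43.5% of the second chromosome 7 window, and females 3 and 4 were the highest females, at 1176 and 896 CPM.

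On the plus strand of this window, 22 start sites stood in 4 groups with a regular spacing, which was noticed after the values were seen. A group is a run of neighbouring starts at most 150 bases apart, kept only if it holds a gap of exactly 48 bases. Of the 18 gaps between neighbours within these groups 16 were exactly 48 bases, a share that is partly fixed by this rule. Among all start sites, 63 neighbouring pairs on a strand lie exactly 48 bases apart, beside 37 at 47 bases and 33 at 49 bases, and no other window held more than 2 of them. The first group ran from 45308864 to 45309200 with 8 sites, the second from 45340813 to 45341006 with 5, the third from 45402322 to 45402463 with 4 and the fourth from 45408406 to 45408598 with 5. Each group overlapped or lay within 1000 bases of a male-higher start on the opposite strand, at 45308966, 45340870, 45402576 and 45408717. That strand held 20 male-higher starts in this window. How often other plus-strand starts lie so near one was not counted, so nothing is read from this.

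These spaced starts were read almost entirely in 2 animals. Male 6 held 5192 CPM in the first group, 190 in the second, 412 in the third and 237 in the fourth, and male 1 held 797, 545, 198 and 160 CPM. The other 4 males reached at most 8.62, 1.61, 7.76 and 9.48 CPM. The highest female value was 80.9 CPM, in female 2 in the first group, and 10.6 CPM elsewhere. The CAGE library had 0 counts in all 4 groups, the first repeat of the pool likewise had 0, and the second repeat had 44, 0, 6 and 12 counts in the first to the fourth group. None of the 22 sites was tested, since too few animals passed the count filter. The second column headed Male4, next in level after males 1 and 6 on the opposite strand at 45340870, 45402576 and 45408717, held only 7.50 CPM over the 4 groups. Without these sites the window level was 5708 ± 4116 CPM in males and 570 ± 484 in females, against 7005 ± 5647 and 588 ± 476 with them.

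**Figure D3:**
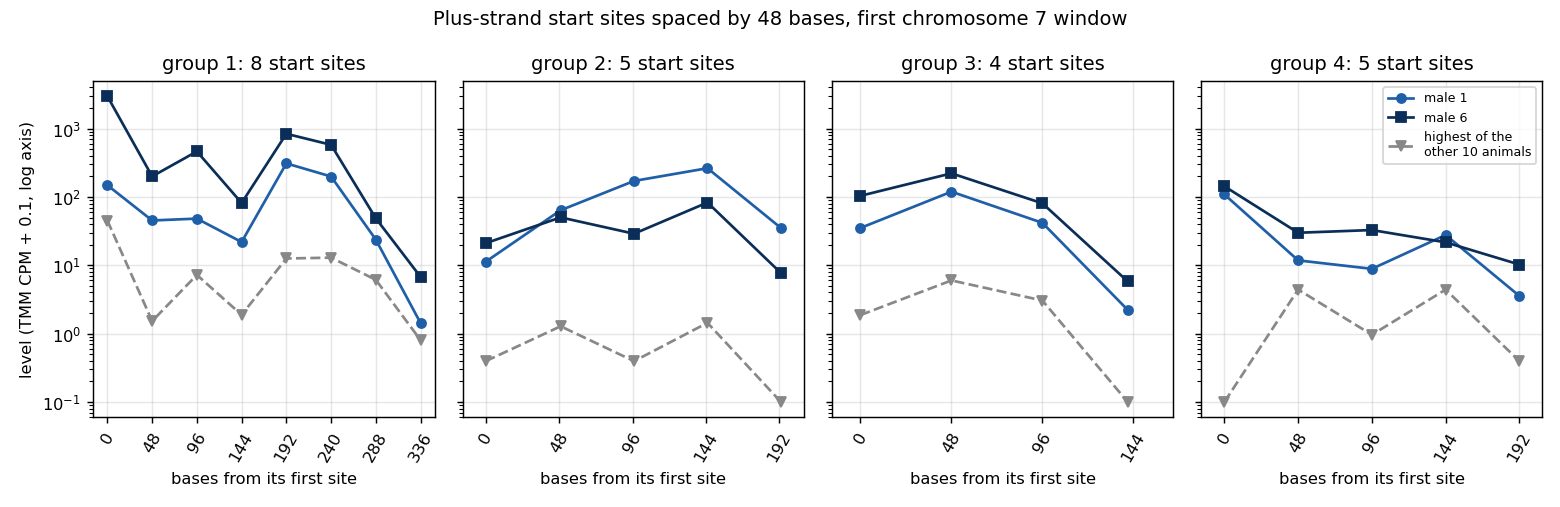
Level (TMM CPM plus 0.1, log axis) of the 22 spaced plus-strand start sites of the first chromosome 7 window against the distance in bases from the first site of their group, in male 1, male 6 and the highest of the other 10 animals. Gridlines are 48 bases apart, and both males lie above the other animals at every site.

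Whether the windows rose and fell together among animals of 1 sex does not depend on the contrast that chose them and was tested. Pearson's r of the log2 levels was computed for the 15 pairs of windows in each sex and assay, with an exact permutation test and adjustment over all 60 pairs. No pair passed the adjusted threshold, which 1 pair alone could not do with 6 animals, and 6 had an unadjusted p under 0.05: 3 in WTTS-seq males, 1 in WTTS-seq females and 2 in WTSS-seq females. The median r was 0.008 in WTTS-seq males, 0.134 in WTTS-seq females, -0.049 in WTSS-seq males and -0.025 in WTSS-seq females. The strongest pair, chromosomes 5 and 10 in WTTS-seq males, ran in opposite directions (r = -0.987, exact permutation p = 0.00139, the smallest that 6 animals allow, adjusted p = 0.0833; rho = -1, adjusted p = 0.167; r = -0.954 without the 2 males farthest from the median). The same pair had r = 0.473 in WTTS-seq females and 0.075 and 0.143 in WTSS-seq males and females. The windows on chromosomes 4 and 10, the highest of the 6, had positive values throughout: r = 0.824 (rho = 0.943) in WTTS-seq females, 0.951 (rho = 0.886) in WTSS-seq females, 0.786 (rho = 0.771) in WTTS-seq males and 0.610 (rho = 0.657) in WTSS-seq males, with adjusted exact permutation p from 0.312 to 0.786 for r. Without the 2 animals farthest from the median these r were 0.994, 0.304, 0.823 and 0.971. The pair of chromosomes 4 and 10 was picked out of the 15 with its values in view, and the same animals entered both assays. Chromosome 5 and the second chromosome 7 window also had positive r throughout. These were 0.178 and 0.054 in WTTS-seq females and males, and 0.746 and 0.081 in WTSS-seq females and males. Nothing is read from the shared signs. The windows of a library share its scaling, and 6 animals leave wide room around each r.

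**Figure D4:**
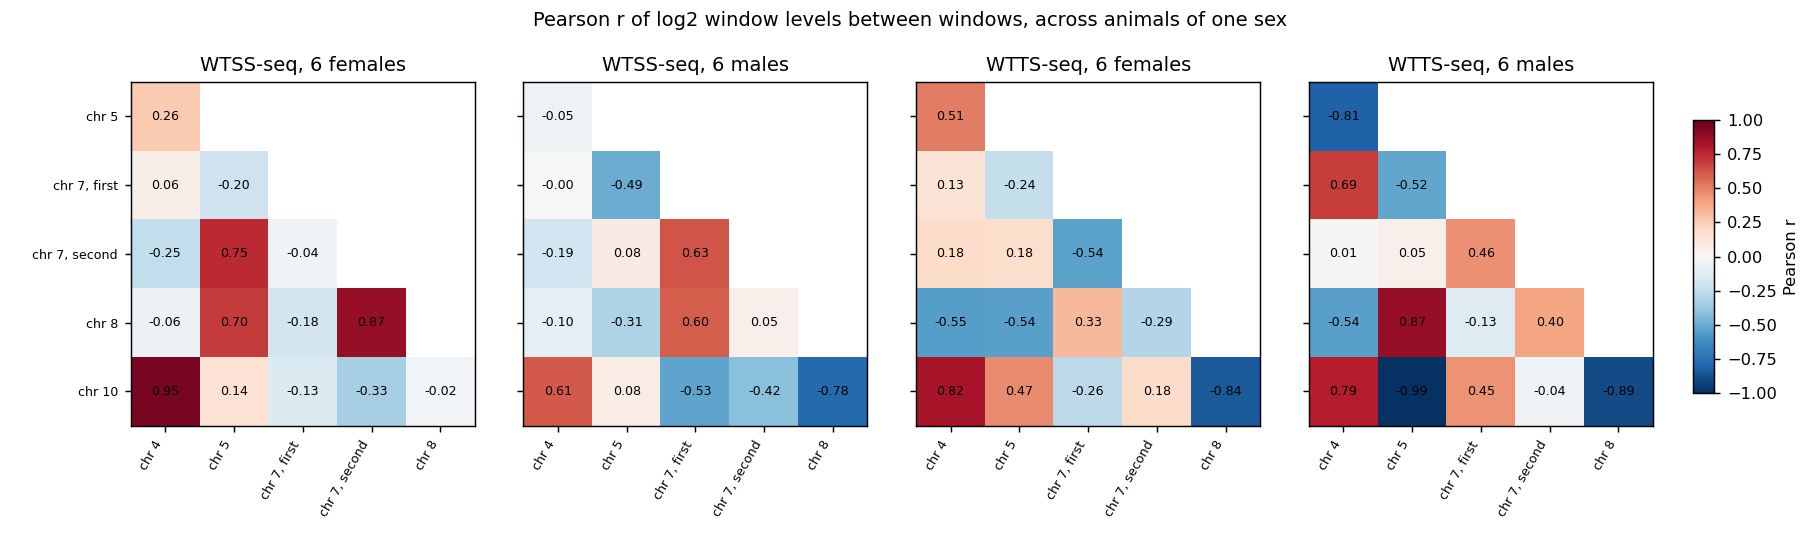
Pearson's r between the log2 levels of each pair of windows across 6 animals, in the 4 combinations of assay and sex; red is positive and blue negative. The square for chromosomes 4 and 10 is positive in all 4 panels (0.610 to 0.951), while that for chromosomes 5 and 10 runs from -0.987 to 0.473. The square for chromosome 5 and the second chromosome 7 window is also positive in all 4 (0.054 to 0.746).

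The 2 ends of a window could be compared within females, since the same 6 numbered females entered both assays; the males could not, because of the unnumbered columns. This comparison was added after the data were seen. Across the 6 females r between the start and the poly(A) level of a window lay between -0.475 and -0.127 and rho between -0.714 and -0.029, and none passed (lowest adjusted exact permutation p = 0.648 for r over the 6 windows). Without the 2 females farthest from the median r lay between -0.751 and 0.856, so no relation was detectable with 6 animals.

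The choice of windows did not use the libraries of the female pool. On a scale common to the 15 WTSS-seq and CAGE libraries, they lay below the lowest male in every window. The windows were chosen for high males, so nothing is read from that. In the first chromosome 7 window the repeats (815 and 777 CPM) and CAGE (811 CPM) lay close to the lowest male (833 CPM). Both repeats of the pool lay above all 6 females in the chromosome 5 window (95.3 and 109 CPM, highest female 68.4) and in the chromosome 8 window (210 and 239 CPM, highest female 156). This was so in 55 (4.43%) of 1242 windows. The 6 windows were chosen partly for low values in these same 6 females, which favors a pool above them. Nothing is read from that share. In the chromosome 4 window the repeats differed from each other, at 1175 and 614 CPM, and in the chromosome 10 window at 658 and 1310 CPM. Repeat 2 lay below the lowest female (738 CPM) in the former and above the highest (930 CPM) in the latter. CAGE of the same pool was above both repeats and all 6 females in the chromosome 8 window, at 757 CPM, and in the second chromosome 7 window, at 193 CPM (highest female 114). It was above both repeats in the chromosome 4 window, at 1284 CPM, between them in the chromosome 5 and first chromosome 7 windows, and below both and all 6 females in the chromosome 10 window, at 267 CPM. Over 1242 windows the median log2 ratio to the female mean was 0.51 for CAGE and -0.25 for the pool. On this scale CAGE thus ran above the females in general, and nothing particular to the windows is read from its level. How often CAGE lay above all 6 females was not counted. The repeats come from 1 pool and count as 1 sample, so no test was made.

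**Figure D5:**
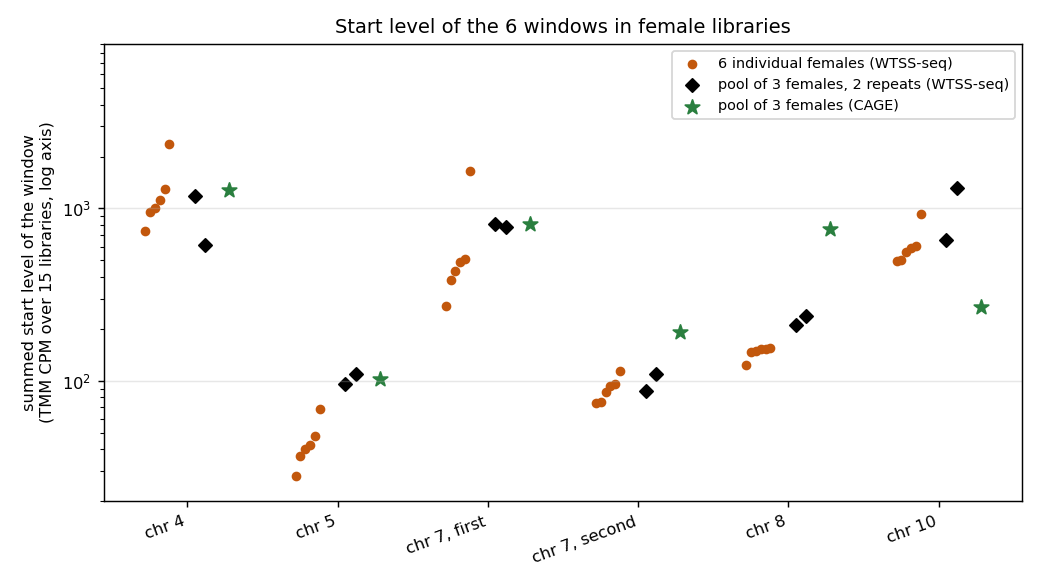
Summed start level of each window (TMM CPM over 15 libraries, log axis) in 6 individual females (orange), 2 repeats of a pool of 3 females (black) and CAGE of that pool (green star). In the chromosome 5 and chromosome 8 windows both repeats lie above all 6 females, and CAGE of chromosome 8, at 757 CPM, lies farthest above them. Over 1242 windows the median log2 ratio of CAGE to the female mean was 0.51.

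At single sites, 24 of the 143 male-higher starts of the windows (16.8%) had both repeats above all 6 females, beside 13.6% of all male-higher starts and 7.33% of all starts tested. The male-higher calls used these same 6 females and so select for low values in them. Nothing is read from these shares. CAGE had a count at 72 of the 143 (50.3%), beside 65.7% of all male-higher starts and 77.5% of all starts tested. The deposited total per poly(A) site also includes counts outside the 12 WTTS-seq libraries. These made up 45.9% of the total in the windows and 58.2% over the whole table, and ran from 21.7% in the chromosome 5 window to 60.6% in the chromosome 10 window. Start clusters of male-higher sites were wide in the windows, with a median of 292 bases against 231 over all male-higher starts, and male-higher poly(A) clusters were narrow, at 46.5 against 112 bases. Width goes with strand in both tables: over all sites the median start cluster was 77 bases on the plus and 140 on the minus strand, and the median poly(A) cluster 122 and 25 bases.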

How the data were processed

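Per the file headers and their values, 2 tables deposited by the authors give raw counts for each cluster of sites: 15 libraries of start sites and 12 of poly(A) sites. The labels list 30 libraries, of which 27 were used here; HATT-seq and Iso-seq were not. Each table also carries a total per site, with 25 as its smallest value. The sources used here give no aligner, genome build, clustering or strand handling, and 0 columns of other samples were found. The labels do not say whether the 2 columns headed Male4 are separate animals beyond listing 6 males, and they were taken as such. Across sites they correlated at 0.844, the lowest of all pairs of males (highest 0.936). The first of them correlated at 0.844 to 0.862 with every male, so this value does not tell whether they are separate animals.

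Positions were shifted to count from 1. All sites were fitted with edgeR 4.0.16 (quasi-likelihood test, TMM, filterByExpr by sex, Benjamini-Hochberg over all sites, threshold 0.05) in R 4.3.3, 6 males against 6 females per assay, with no block. Standard errors of log2 differences were taken as the absolute difference over the square root of the F statistic. Window levels are summed counts on the TMM scale of the site table. Alternatives were RLE size factors, library totals, limma-voom (limma 3.58.1), DESeq2 1.42.0, no filter, each library left out, the highest site left out and a replicate block. The pool and CAGE were scaled with the 12 individual start libraries. Floors are 3 counts over a group. Sums, correlations and plots were made in Python 3.11.15 with scipy 1.17.1, pandas 2.3.3 and numpy 2.4.6. The site test was tested on simulated data.

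The windows, the site and locus definitions and the tests were chosen with earlier results of these data known. Named sites are, per window and assay, the 2 tested sites of highest mean level, the 2 largest male-higher and the largest female-higher changes, and 1 locus per window of the highest geometric mean of both assays. The sites of the first chromosome 7 window other than 45490905 and 45308966, the sites at the borders and the spaced groups were chosen after their values were seen. Intervals and floors cover counting error only, since PCR reads without molecular identifiers are not independent molecules. The animals are separate per the labels, so the error is the spread between animals.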

Additional observations from a re-analysis of the deposited data

Results flagged for a closer look

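Among 133 groups of 6 animals (the window levels and the named sites by sex and assay, all in TMM CPM), 28 held 1 animal farther from the others, relative to the range of the group, than the 95% limit of Dixon's test allows. That limit flags about 1 in 20 groups only for normally distributed values, and these CPM were not logged. A group with counts in only 1 animal is always flagged, and window levels include the named sites. The 28 are therefore not set against a chance rate. No cause was tested.

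Among the window levels there were 5. Female 6 held 1088 CPM of poly(A) counts in the chromosome 10 window (other females at most 713), and by starts female 2 held 824 there (others at most 566). By starts, female 3 held 77.6 CPM in the chromosome 5 window (others at most 42.4), female 5 held 1552 in the first chromosome 7 window (others at most 468) and male 1 held 3360 in the chromosome 8 window (others at most 1729).

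Among poly(A) sites on chromosome 4, female 6 held 1566 CPM at 12647272 and female 1 held 2.95 at 12633069. On chromosome 5, male 1 held 442 CPM at 144418468 (other males at most 191) and 3.81 at 144271844 (others 0), and male 4 held 491 at 144522677 (others at most 140) and 485 at 144590542 (others at most 64.9). At 144522677 female 4 held 0.311 CPM, its single female count. On chromosome 7, male 4 held 303 CPM at 73882188 and female 1 held 4.42 at 73177874. On chromosome 8, female 2 held 4.27 CPM at 57150073 and male 1 held 1.63 at 57324326. On chromosome 10, male 2 held 7324 CPM at 39632909 (other males at most 4262) and male 6 held 0.698 at 39791489.

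Among start sites, female 2 held 1519 CPM at 12626599 and 22.1 at 12320894 on chromosome 4, and the first column headed Male4 held 61.2 at 144105004 on chromosome 5 (other males at most 19.4). On chromosome 7, female 5 held 177 CPM at 45490905 (other females at most 31.1), female 3 held 1.02 at 73817602 and male 1 held 33.0 there, below the other males at 77.4 or more. On chromosome 8, at 57853518, male 1 held 1614 CPM (other males at most 544) and female 5 held 12.3 (other females at most 4.40). On chromosome 10, female 5 held 0.849 CPM at 39618185 and male 6 held 2.22 at 39789240.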

How the results depend on the processing

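Under RLE size factors, limma-voom, DESeq2 and each library left out, the counts of called sites in the windows stayed within 1.5 times those given; with libraries left out they ranged from 80 to 100 male-higher and 14 to 21 female-higher poly(A) sites, and from 141 to 171 and 14 to 19 start sites. With libraries left out the male-higher share of all sites tested ran from 21.9% to 27.3% (poly(A)) and from 30.7% to 36.1% (starts). Library totals alone gave 25 female-higher poly(A) sites, where the whole table had 2627 male-higher and 7462 female-higher. No filter gave 250 male-higher and 54 female-higher poly(A) sites and 433 and 59 start sites, over more sites tested. It called 15.6% of all poly(A) sites and 25.6% of all start sites male-higher. With library totals alone the poly(A) log2 difference turned to -0.12 on chromosome 8 and became 2.22 on chromosome 4, 2.51 on chromosome 5, 2.09 and 1.31 in the first and second chromosome 7 windows and 2.52 on chromosome 10; the start values became 4.0, 2.04, 2.89 and 3.83 (first and second chromosome 7), 2.95 (chromosome 8) and 3.58 (chromosome 10). Without its site of highest mean count the poly(A) value became 2.83 on chromosome 4, 4.11 in the second chromosome 7 window and 3.36 on chromosome 10. In the second chromosome 7 window this site was the female-higher one at 73210234. Without the start of highest mean count the start value became 3.35 in the second chromosome 7 window and 3.08 on chromosome 8. With libraries left out the poly(A) values ranged from 3.26 to 3.55 (chromosome 4), 3.34 to 3.77 (5), 3.11 to 3.51 and 2.28 to 2.54 (first and second window on 7), 0.94 to 1.12 (8) and 3.60 to 3.93 (10). The start values ranged from 4.44 to 4.90, 2.36 to 2.89, 3.33 to 4.06, 4.24 to 4.70, 3.40 to 3.84 and 4.08 to 4.45 in the same order. Leaving a library out also changes which sites pass the filter and so the scaling.

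The replicate numbers do not pair the animals (correlations of deviations from -0.088 to 0.116 in WTTS-seq and from -0.198 to 0.109 in WTSS-seq). The replicate block gave 79 male-higher and 15 female-higher poly(A) sites. In WTSS-seq only 3 numbers are shared, and the block gave 166 and 10 start sites, against 172 and 12 in those 6 libraries without it. Of all sites tested, 23.7% of poly(A) sites and 29.5% of starts were male-higher under the block, and 32.5% of starts in those libraries without it. The start values of the windows under the block were 5.37, 3.28, 4.86 (second chromosome 7), 4.05 (8) and 4.58 (10), against 5.40, 3.31, 4.86, 4.18 and 4.59 in the same libraries without it, so the choice of libraries moved them.

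Of 55 named sites, 53 kept their direction and their call under each of these settings that gave a value, and the exceptions were 2 starts. The log2 difference of 12320894 was -0.06 under the block and -0.05 in those libraries without it, where no difference was left. That of 144204871 lay between -1.29 and -0.80 where its call was lost. Window pairs past the adjusted threshold numbered 0 under library totals and without the highest sites. Without the highest sites the lowest adjusted exact permutation p was 0.808 in each sex and assay, against 0.0833 to 0.591 with them. With animals left out the pairs could hardly pass, so their 0 shows no stability. In WTSS-seq females the median r was 0.640 under library totals against -0.025 with TMM; the cause was not tested. Sites below the filter were not tested, and whether low depth or presence in few animals kept each of them out was not separated.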
